A study of Mus musculus with 6 samples.

Results

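The endoplasmic reticulum genes described here serve translocation, folding and stress signalling in that organelle, and they were compared between BODIPY-high and BODIPY-low microglia from the hippocampus of mice given lipopolysaccharide (LPS). The rule that chose them uses gene symbols and no measured value, but the choice was made with earlier results of these data known. A set of prefixes (Sec61, Sec62, Sec63, Ssr, Spcs, Srp, Kdelr and Pdia with the Tram genes) found 30 genes, and 17 more were given by name, which makes 47 of the 15912 genes in the deposited table. BODIPY is a dye of neutral lipids, so the gates part lipid-droplet-high from lipid-droplet-low microglia. All mice were male C57BL/6 animals 3 months old, and those of both gates had received 1 mg/kg LPS intraperitoneally for 4 days, with tissue taken 24 hours after the last injection. Each sample pooled the hippocampi of 2 mice, and about 10000 live CD11b+CD45lo cells, the usual gate for microglia, were sorted. Each gate had 3 libraries, numbered 1 to 3, and mice given saline were not analysed here.

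Proteins bound for secretion, lysosomes or the plasma membrane enter the endoplasmic reticulum (ER) as they are made. The signal recognition particle (SRP) brings the ribosome to the Sec61 channel, signal peptidase and oligosaccharyltransferase process the chain, lectin chaperones and protein disulfide isomerases fold it, and KDEL receptors return escaped ER residents from the Golgi. When unfolded chains build up, the sensors Ern1 (IRE1), Eif2ak3 (PERK) and Atf6 act through Xbp1, Atf4 and processed Atf6 to raise chaperones, KDEL receptors and the ER-associated degradation (ERAD) machinery. Microglia, as macrophages, make large amounts of lysosomal and secreted proteins.

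One route of that response is written in promoters. The ER stress response element (ERSE, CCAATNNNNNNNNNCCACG) and its compact form ERSE-II (ATTGGNCCACG) are bound by Atf6 or Xbp1 together with NF-Y. Both were searched on both strands in RefSeq promoter windows of 300 bases (250 before to 50 after the start site, build GRCm38.p6). A window was found for 38 of the 47 genes. It was not found for Kdelr2, Derl1, Srp19, Srp68, Spcs3, Atf6, Ssr2, Tram1 and Sec61a1. The matches in these genes, and that of Hspa5 (BiP, the main ER chaperone) for comparison, are shown because they name the members for which the element is present in this window. Capitals mark the conserved ends of the element.
Calr, ERSE, chr8:84847070-84847098, plus strand: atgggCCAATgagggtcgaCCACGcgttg
Canx, ERSE, chr11:50325795-50325823, minus strand: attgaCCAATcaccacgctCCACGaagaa
Pdia6, ERSE, chr12:17266486-17266514, plus strand: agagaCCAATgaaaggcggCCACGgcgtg
Hspa5, ERSE, chr2:34772020-34772048, plus strand: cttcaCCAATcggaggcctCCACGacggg
Herpud1, ERSE-II, chr8:94386372-94386392, plus strand: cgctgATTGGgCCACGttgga

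The centre of the element lay 153 bases before the start site in Calr, 136 in Canx, 89 in Pdia6, 56 in Hspa5 and 47 in Herpud1. In Calr it read on the strand opposite to the gene. ERSE was present in 3 of 38 members with a window (7.89%), against 37 of 27025 genes with a window (0.137%). ERSE-II was present in 1 of 38 members (2.63%), against 12 of 27025 genes (0.0444%). Among the 9745 genes with a window that entered the test between gates, ERSE was found in 16 (0.164%) and ERSE-II in 8 (0.0821%). The members were picked as ER genes, Calr, Canx and Herpud1 by name, so these shares describe the list and test nothing. Among 101 genes with a window in the related ER lists described further on, ERSE was found in Creld2, Derl3, Dnajc3, Ero1b, Hsp90b1, Hspa5 and Syvn1, and ERSE-II in Dnajb11 and Krtcap2. A match is a description of these letters and not a measured binding site.

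The libraries held 37633089 to 39220494 recovered reads in the BODIPY-high gate and 34899413 to 36518323 in the BODIPY-low gate. The deposited values are counts divided by a size factor per library and are called normalized counts. Microglial markers (12 genes, Tmem119 among them) summed to 2118042 to 2950051 normalized counts in BODIPY-high libraries and 2731913 to 3233521 in BODIPY-low libraries, and none of the 12 was at 0. Markers of other cell populations went with the gate. Choroid plexus markers summed to 39831 to 52404 in BODIPY-high libraries and 308 to 2311 in BODIPY-low libraries, and 8 of 8 were higher (limma, adjusted p under 0.05; Ttr log2 change 5.73, Enpp2 6.40). Markers of border-associated macrophages summed to 43994, 48812 and 122302 in BODIPY-high libraries 1, 2 and 3, against 23574, 17574 and 24502 in BODIPY-low libraries 1, 2 and 3, and 9 of 12 were higher (Mrc1 log2 change 3.43). Astrocyte markers were higher in 4 of 8 and oligodendrocyte markers in 1 of 6, while 0 of 8 endothelial, 0 of 11 monocyte and neutrophil, 0 of 12 microglial and 0 of 3 plasma and B cell markers passed in either direction in limma without the block (Tmem119 log2 change -0.29). With the replicate block, higher calls were made for 11 of 12 border-associated macrophage, 6 of 8 astrocyte, 2 of 6 oligodendrocyte and 2 of 11 monocyte and neutrophil markers, and 1 of 12 microglial markers was lower. No marker with a row in the table was at 0 in all libraries of a gate. In sorted pools, fewer cells of a type and less RNA per cell cannot be told apart. The part of these populations in the differences below was not tested.

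None of the ER genes passed the limma test between gates without the block, and most of the changes were small. Of the 47, 44 passed the filter on low values (3 or more libraries at 10 normalized counts or above). By limma, at an adjusted p under 0.05, 0 were higher and 0 lower in the BODIPY-high gate, against 2.03% of all 12767 genes tested called higher and 0.0235% called lower. With p unadjusted, 0 of the 44 lay under 0.05 and higher, and 4 lay under it and lower (Kdelr2, Tram2, Ssr4 and Kdelr1), against 8.03% and 2.27% of all genes. The median log2 change of the 44 was -0.08, against -0.0043 over all genes tested. A negative change was found in 31 of the 44 (70.5%), against 50.8% of all genes. The microglial markers leaned the same way, with 12 of 12 negative and a median log2 change of -0.26, and their part in the lean of the ER genes was not tested. The groups of libraries did not overlap, with BODIPY-high lower, in 4 members (Tram2, Xbp1, Kdelr2 and Ssr4), and with BODIPY-high higher in 0, where all genes gave 5.95% lower and 10.4% higher. Without BODIPY-high library 3 the median of the 44 was 0.0021, and without both libraries numbered 3 it was -0.03.

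Equal-numbered libraries of the gates varied together, and a fit with the number as a block called 0 members higher and 2 lower, Kdelr2 and Tram2, against 4.37% of all genes called higher and 0.462% lower. DESeq2 on recovered reads called 0 members higher and the same 2 lower, against 3.63% higher and 0.251% lower of all genes it tested. edgeR called 0 members in either direction, against 1.74% of all genes higher and 0.00783% lower.

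The precision differed between members. For 35 of the 44, the 95% interval of the change lay within 1.5-fold in both directions, so a larger difference falls outside the interval for these. For 9 it reached further, namely Tram2, Kdelr2, Kdelr1, Ssr4, Sec61g, Sec61a2, Srp54a, Ddit3 and Atf4. The median distance from the change to the edge of its interval was 0.30 on the log2 scale, and 31 of the 44 changes were smaller than their standard error.

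**Figure D1:**
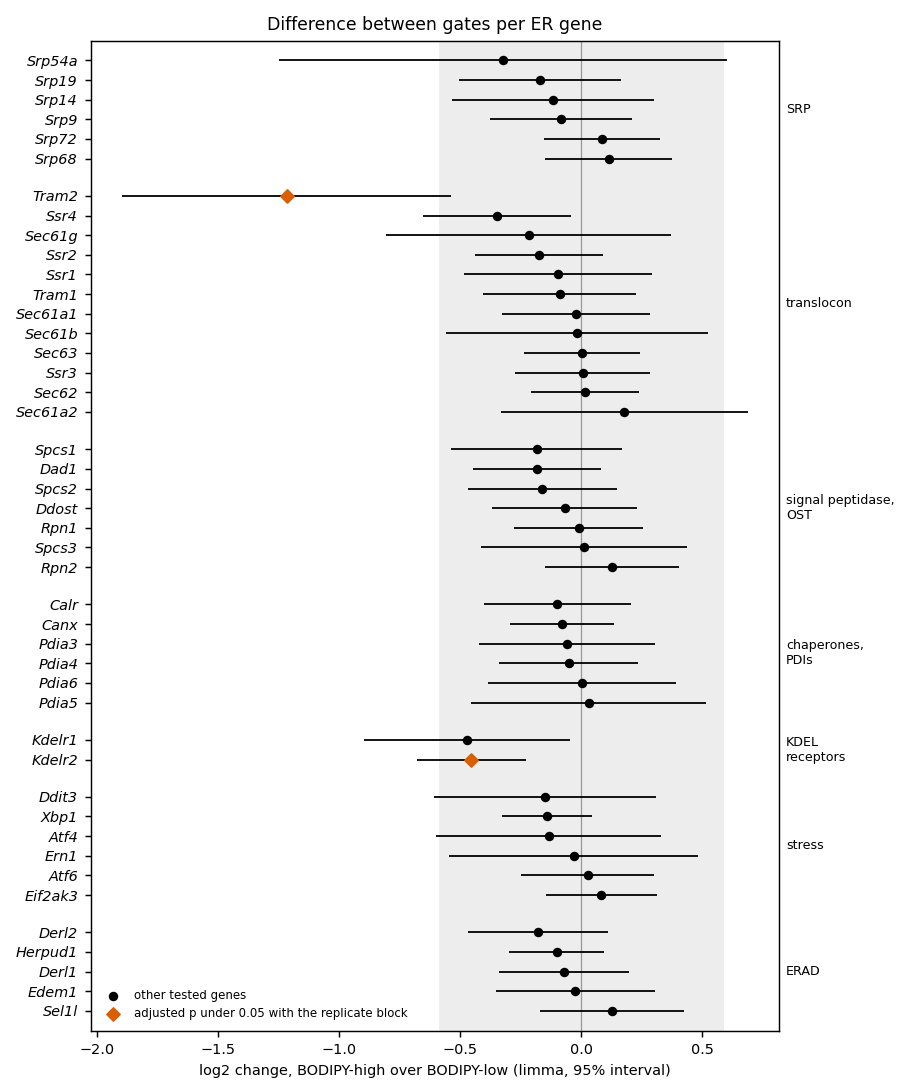
Log2 change of each of the 44 tested ER genes, BODIPY-high over BODIPY-low, from limma on log2(normalized count + 1), with its 95% interval as a line and genes grouped by role. The grey band marks 1.5-fold, and 35 of the 44 intervals lie inside it. Diamonds mark Kdelr2 and Tram2, which pass the adjusted threshold with the replicate block (adjusted p = 0.0174 and 0.0428) but not without it (0.0626 and 0.100).

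KDEL receptors were the role with the lowest median change, -0.46 over the 2 tested genes. Gene positions are those of GENCODE release M21 on GRCm38. Kdelr2 (chr5:143403838-143421901), which binds the KDEL tail of chaperones in the Golgi and returns them to the ER, had 1779, 1911 and 1651 normalized counts in BODIPY-high libraries 1, 2 and 3, against 2429, 2476 and 2399 in BODIPY-low libraries 1, 2 and 3. Each BODIPY-high library lay below each BODIPY-low library, and the 3 BODIPY-low libraries were close together. The means were 1780.3 ± 130 in BODIPY-high and 2435 ± 39.1 in BODIPY-low libraries (SD, n = 3 each), a ratio of 0.731. The log2 change was -0.45 (SE 0.10, 95% interval -0.68 to -0.23). The adjusted p was 0.0626 in limma and 0.0605 in edgeR, against 0.0174 with the replicate block and 0.0045 in DESeq2, so the call depends on the model. Leaving out any library in turn gave log2 changes of -0.51 to -0.40 and adjusted p by limma of 0.145 to 0.209.

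Kdelr1, a second KDEL receptor, had 1030.0, 842 and 1446 normalized counts in BODIPY-high libraries 1 to 3 and 1495, 1605 and 1399 in BODIPY-low libraries 1 to 3. Libraries 1 and 2 of the BODIPY-high gate were low, but library 3 lay above 1 of the BODIPY-low libraries, so the gates overlapped. This gave a log2 change of -0.47 with a 95% interval of -0.90 to -0.05 (SE 0.19, adjusted p = 0.405 by limma). Without BODIPY-high library 3 the change was -0.69 (adjusted p = 0.107 by limma), and with each other library left out it stayed between -0.52 and -0.30. Kdelr3, the third receptor, was near the floor of detection and was not tested. Its normalized counts were 3.00, 13.96 and 1.84 in BODIPY-high libraries and 0, 0 and 2.11 in BODIPY-low libraries, where 3 reads are worth 2.76 to 3.29.

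**Figure D2:**
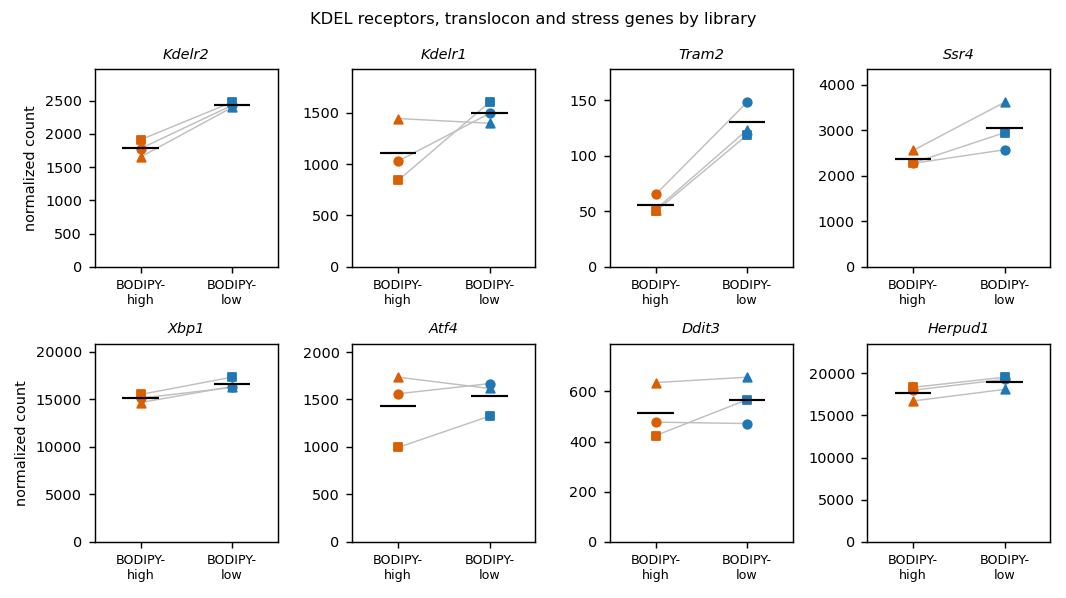
Normalized count in each library for 8 ER genes, with BODIPY-high at the left and BODIPY-low at the right of each panel. Circles, squares and triangles are libraries 1, 2 and 3, grey lines join equal numbers, black bars are means of 3, and each axis starts at 0. Kdelr2, Tram2, Ssr4 and Xbp1 do not overlap between gates, while Kdelr1, Atf4, Ddit3 and Herpud1 do.

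The SRP genes, whose products bind the signal sequence and the ribosome, gave 0 calls among 6 tested of 7, with a median log2 change of -0.10. Srp68, a subunit that binds SRP RNA with Srp72, had 2566, 2829.7 and 3308 normalized counts in BODIPY-high libraries 1, 2 and 3, against 2500.4, 2754 and 2762 in BODIPY-low libraries 1, 2 and 3. Its log2 change was 0.11, with an SE of 0.12 and a 95% interval of -0.15 to 0.38 (adjusted p = 0.846 by limma). Srp72 had 1819, 1838 and 1959 normalized counts in BODIPY-high libraries 1 to 3 and 1710.5, 1658 and 1927 in BODIPY-low libraries 1 to 3. Libraries of the 2 gates overlapped for both, although each pair of equal number was higher in the BODIPY-high gate. For Srp72 the log2 change was 0.09 (95% interval -0.15 to 0.33, SE 0.11), and the adjusted p was 0.872 by limma. Srp19, needed for assembly of the particle, had 703, 698 and 736 normalized counts in BODIPY-high libraries 1, 2 and 3, against 712, 764 and 943 in BODIPY-low libraries 1, 2 and 3. BODIPY-high library 3 lay above BODIPY-low library 1, so the gates overlapped. In limma the change came to -0.17 on the log2 scale (SE 0.15, 95% interval -0.50 to 0.16, adjusted p = 0.807). Srp14 and Srp9, which form the domain that slows elongation, had log2 changes of -0.12 and -0.08, and 15.2% of the 100-base stretches of Srp9 transcripts occur also in Gm13736 or Gm17968. Srp54a, a copy of the subunit that reads the signal sequence, was low at 32.9 to 41.4 normalized counts in BODIPY-high and 36.9 to 65.8 in BODIPY-low libraries, and Srp54b was not tested at 8.01, 10.97 and 10.1 in BODIPY-high and 7.68, 9.28 and 8.42 in BODIPY-low libraries. Of the stretches of their transcripts, 66.6% and 87.6% occur also in another Srp54 copy, so these 2 values are uncertain.

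Among the 12 genes of the translocon, the Sec61 channel with its accessory proteins, the median log2 change was -0.06, and 0 passed the test without the block. Tram2 (chr1:20996299-21079229), a relative of the translocating chain-associated protein Tram1 that is known for a part in collagen synthesis, had 65.1, 49.9 and 51.5 normalized counts in BODIPY-high libraries 1 to 3 and 148, 119 and 123 in BODIPY-low libraries 1 to 3. BODIPY-high libraries lay at 0.418 to 0.439 of the BODIPY-low library of equal number, with no overlap. The log2 change was -1.22 (SE 0.30, 95% interval -1.90 to -0.54). The adjusted p was 0.100 in limma and 0.125 in edgeR, against 0.0428 with the replicate block and 0.0242 in DESeq2. Leaving out each library in turn gave log2 changes of -1.33 to -1.12 and adjusted p by limma of 0.139 to 0.327. It was also the least abundant of the translocon genes by length, at 8.33 normalized counts per kb of exon in BODIPY-high and 19.5 in BODIPY-low libraries, against 8826 and 9341 for Tram1.

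Ssr4 (chrX:73787028-73790830), the delta subunit of the translocon-associated protein complex (TRAP), had 2272, 2281 and 2557 normalized counts in BODIPY-high libraries 1, 2 and 3, against 2571, 2946 and 3615 in BODIPY-low libraries 1, 2 and 3. Every BODIPY-high library lay below every BODIPY-low library, by a small margin between BODIPY-high library 3 and BODIPY-low library 1. The log2 change was -0.35 (SE 0.13, 95% interval -0.65 to -0.04), with an adjusted p of 0.385 by limma. Its adjusted p with the replicate block was 0.0638. The TRAP subunit Ssr2 had 3813, 3998 and 3216 normalized counts in BODIPY-high libraries 1 to 3 and 4029.8, 4583 and 3819 in BODIPY-low libraries 1 to 3. Its gates overlapped, and each BODIPY-high library was below its equal-numbered BODIPY-low library. This gave a log2 change of -0.17 with a 95% interval of -0.44 to 0.09 (SE 0.12, adjusted p = 0.713 by limma). The other TRAP subunits, Ssr1 and Ssr3, had log2 changes of -0.10 and 0.00.

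The channel itself had 0 calls. The pore subunit Sec61a1 had 12661 to 17032 normalized counts in BODIPY-high and 13651 to 16750 in BODIPY-low libraries (log2 change -0.02, 95% interval -0.33 to 0.28). The small subunits Sec61b and Sec61g had log2 changes of -0.02 and -0.22, and the second pore gene Sec61a2 had 0.18 with an interval of -0.33 to 0.69. For Sec61a2, 16.1% of its 100-base stretches also lie in transcripts of the overlapping Nudt5, and the kits keep no strand. For Sec61g 12.7% and for Sec62 9.50% of the stretches occur also in transcripts of other genes. Sec62 and Sec63, which assist import of finished chains, had log2 changes of 0.01 and 0.00, and Tram1 had -0.09.

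**Figure D3:**
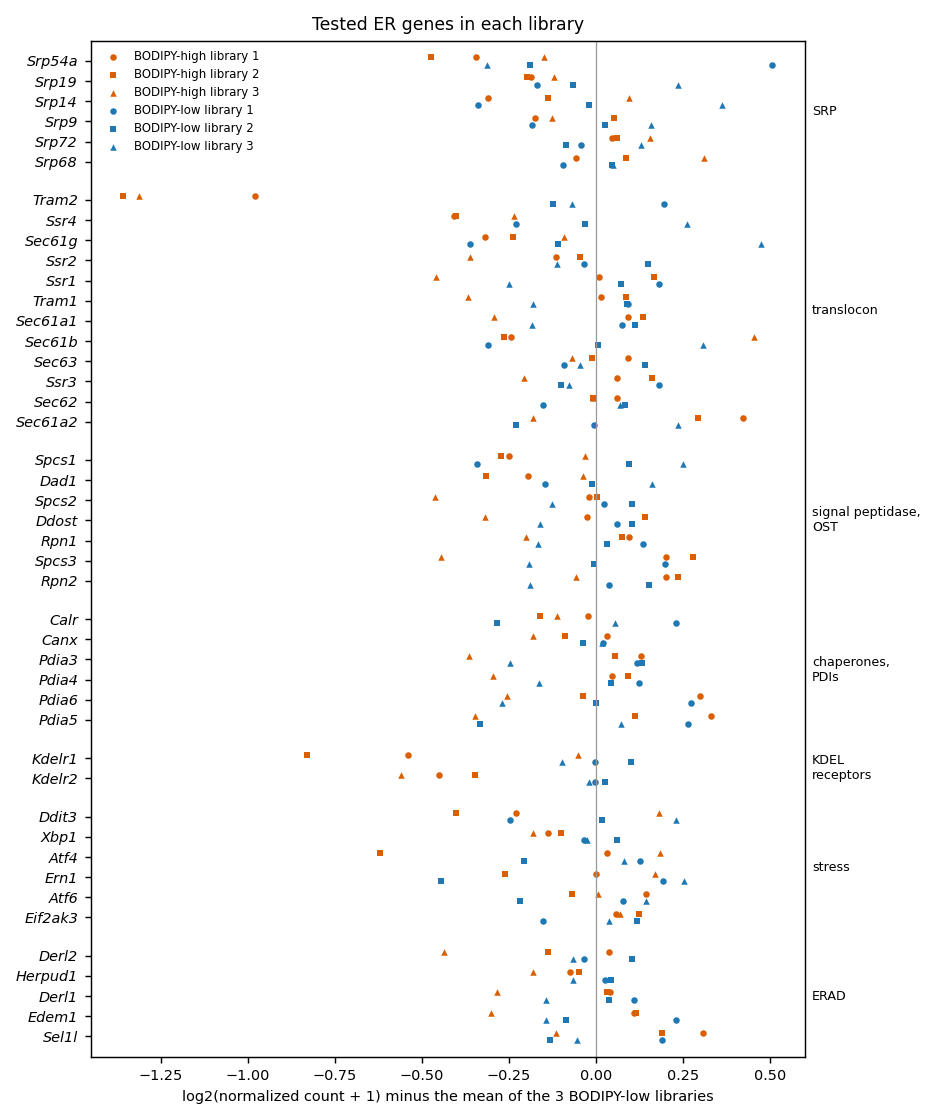
Each of the 44 tested ER genes in each of the 6 libraries, as log2(normalized count + 1) minus the mean of the 3 BODIPY-low libraries, with BODIPY-high in orange above BODIPY-low in blue and genes grouped by role. Tram2 and Kdelr2 stand to the left in all 3 BODIPY-high libraries, and triangles (library 3) lie left of the other symbols in both gates for 17 of the 44 genes.

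Signal peptidase and oligosaccharyltransferase genes gave 0 calls of 7 and a median of -0.07. Dad1, a small subunit of oligosaccharyltransferase, had 2931, 2697 and 3267 normalized counts in BODIPY-high libraries 1, 2 and 3, against 3031, 3327 and 3748 in BODIPY-low libraries 1, 2 and 3. Each BODIPY-high library was below its equal-numbered BODIPY-low library, but the gates overlapped. Its log2 change was -0.18, with an SE of 0.12 and a 95% interval of -0.45 to 0.08 (adjusted p = 0.691 by limma). Spcs2, an accessory subunit of signal peptidase, had 13233, 13452 and 9735 normalized counts in BODIPY-high libraries 1 to 3 and 13645, 14424 and 12306 in BODIPY-low libraries 1 to 3. BODIPY-high library 3 was lowest of the 6. For Spcs2 the log2 change was -0.16 (95% interval -0.47 to 0.15, SE 0.14), and the adjusted p was 0.795 by limma. Spcs1, another accessory subunit, had 2485, 2444 and 2889 normalized counts in BODIPY-high libraries 1, 2 and 3, against 2328, 3151 and 3510.4 in BODIPY-low libraries 1, 2 and 3, and the lowest of the 6 was BODIPY-low library 1. In limma the change came to -0.18 on the log2 scale (SE 0.16, 95% interval -0.54 to 0.17, adjusted p = 0.795). Of its 100-base stretches, 7.09% occur also in Glt8d1. Rpn2 and Rpn1, the ribophorins of oligosaccharyltransferase, had log2 changes of 0.13 and -0.01, Ddost had -0.07 and Spcs3 had 0.01.

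Lectin chaperones and disulfide isomerases held the largest share of the members' counts, 0.400 to 0.488% of all normalized counts in BODIPY-high and 0.424 to 0.495% in BODIPY-low libraries, and gave 0 calls among 6 tested of 7. Canx (calnexin), which holds glycoproteins at the ER membrane and carries the ERSE shown above, had 38991, 35863 and 33648 normalized counts in BODIPY-high libraries 1 to 3 and 38654, 37160.3 and 38594 in BODIPY-low libraries 1 to 3. BODIPY-high library 3 was lowest and BODIPY-high library 1 highest of the 6. A log2 change of -0.08 with an SE of 0.10 resulted (95% interval -0.29 to 0.14, adjusted p = 0.872 by limma). Calr (calreticulin), its soluble counterpart, had 31176, 28295 and 29274 normalized counts in BODIPY-high libraries 1, 2 and 3, against 37149, 25988 and 32882 in BODIPY-low libraries 1, 2 and 3. Both the highest and the lowest library were in the BODIPY-low gate. The log2 change was -0.10 (SE 0.13, 95% interval -0.40 to 0.20), with an adjusted p of 0.889 by limma. Pdia4, a disulfide isomerase, had 15236, 15719 and 12029.6 normalized counts in BODIPY-high libraries 1 to 3 and 16072, 15191 and 13168 in BODIPY-low libraries 1 to 3, with library 3 lowest in both gates. This gave a log2 change of -0.05 with a 95% interval of -0.34 to 0.23 (SE 0.13, adjusted p = 0.947 by limma). Pdia6, which also carries ERSE, had a log2 change of 0.00 (95% interval -0.39 to 0.39), Pdia3, the isomerase that works with the lectin chaperones, had -0.06, and Pdia5 had 0.03. Pdia2, an isomerase best known from pancreas, had 0, 0 and 1.84 normalized counts in BODIPY-high and 0, 2.06 and 0 in BODIPY-low libraries and was not tested.

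Per kb of exon, the levels of the members spanned several orders of magnitude and had nearly the same order in both gates (rank correlation 0.997 across the 47 genes, which share libraries and are not replicates). Pdia3 was highest, at 19135 in BODIPY-high and 19871 in BODIPY-low libraries, followed by Calr at 10271 and 11113, Ddost at 9232 and 9633 and Tram1. Of the stress genes, Xbp1 had 4647 and 5123, Atf4 606 and 651, and Ern1 54.6 and 56.6. The 47 genes together held 1.25, 1.23 and 1.06% of all normalized counts in BODIPY-high libraries 1, 2 and 3 and 1.26, 1.22 and 1.13% in BODIPY-low libraries 1, 2 and 3.

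**Figure D4:**
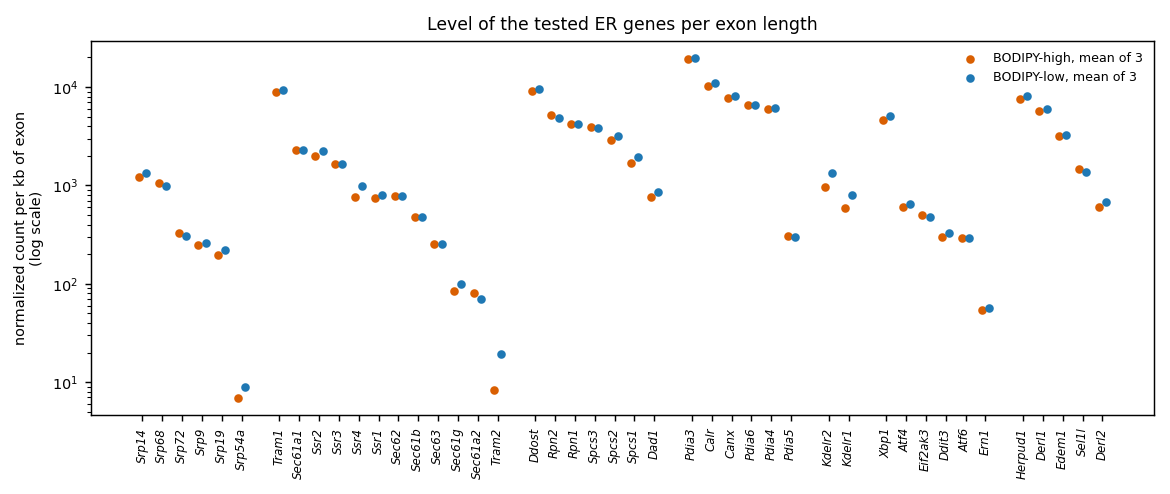
Mean normalized count per kb of exon for each of the 44 tested ER genes on a log scale, with BODIPY-high in orange at the left and BODIPY-low in blue at the right of each pair (means of 3 libraries, no error shown) and genes grouped by role. The pairs lie nearly on top of each other, and Tram2 at 8.33 and 19.5 shows the widest gap among them.

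The stress sensors and their transcription factors gave 0 calls of 6 and a median log2 change of -0.08. Xbp1 (chr11:5520659-5525893), whose mRNA is spliced by IRE1 to give the active factor, had 15114, 15506 and 14658 normalized counts in BODIPY-high libraries 1, 2 and 3, against 16243, 17327 and 16345 in BODIPY-low libraries 1, 2 and 3. The gates did not overlap, and the BODIPY-high mean was 9.29% lower, a ratio of 0.907. Its log2 change was -0.14, with an SE of 0.08 and a 95% interval of -0.33 to 0.05 (adjusted p = 0.656 by limma). Gene counts do not separate its spliced from its unspliced form. Atf4, the factor translated when PERK is active, had 1561, 994 and 1735 normalized counts in BODIPY-high libraries 1 to 3 and 1668, 1324 and 1616 in BODIPY-low libraries 1 to 3. BODIPY-high library 2 was lowest, and BODIPY-high library 3 was highest. For Atf4 the log2 change was -0.14 (95% interval -0.60 to 0.33, SE 0.20), and the adjusted p was 0.905 by limma. Ddit3 (CHOP), a factor induced downstream of Atf4, had 477, 424 and 635 normalized counts in BODIPY-high libraries 1, 2 and 3, against 472, 567 and 657 in BODIPY-low libraries 1, 2 and 3, and library 3 was highest in both gates. In limma the change came to -0.15 on the log2 scale (SE 0.20, 95% interval -0.61 to 0.31, adjusted p = 0.889).

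The 3 sensors gave intervals that include 0. Atf6 had 2930.0, 2529 and 2665 normalized counts in BODIPY-high libraries 1 to 3 and 2797, 2281 and 2927 in BODIPY-low libraries 1 to 3. A log2 change of 0.03 with an SE of 0.12 resulted (95% interval -0.25 to 0.30, adjusted p = 0.974 by limma). Ern1 had 452, 377 and 509 normalized counts in BODIPY-high libraries 1, 2 and 3, against 517, 332 and 539 in BODIPY-low libraries 1, 2 and 3, with library 2 lowest in both gates. The log2 change was -0.03 (SE 0.23, 95% interval -0.55 to 0.48), with an adjusted p of 0.986 by limma. Eif2ak3 had 2967, 3107 and 2993 normalized counts in BODIPY-high libraries 1 to 3 and 2567, 3093 and 2928 in BODIPY-low libraries 1 to 3, and the lowest of the 6 was BODIPY-low library 1. This gave a log2 change of 0.08 with a 95% interval of -0.15 to 0.31 (SE 0.10, adjusted p = 0.874 by limma). The intervals of Atf6, Ern1, Eif2ak3 and Xbp1 lay within 1.5-fold, and those of Atf4 and Ddit3 reached past it on the lower side.

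ERAD genes gave 0 calls of 5, with a median of -0.07. Herpud1, an ER membrane protein of the ERAD complex and the carrier of ERSE-II shown above, had 18002, 18343 and 16725 normalized counts in BODIPY-high libraries 1, 2 and 3, against 19299, 19551 and 18102 in BODIPY-low libraries 1, 2 and 3. Each BODIPY-high library was below its equal-numbered BODIPY-low library, and the gates overlapped. Its log2 change was -0.10, with an SE of 0.09 and a 95% interval of -0.30 to 0.09 (adjusted p = 0.796 by limma). Derl2, a derlin of the export channel, had 5661, 5013 and 4074 normalized counts in BODIPY-high libraries 1 to 3 and 5381, 5928 and 5264 in BODIPY-low libraries 1 to 3. BODIPY-high library 3 was lowest of the 6, and BODIPY-high library 1 lay above 2 of the BODIPY-low libraries. For Derl2 the log2 change was -0.18 (95% interval -0.47 to 0.11, SE 0.13), and the adjusted p was 0.739 by limma. Sel1l, the adaptor of the Hrd1 ligase, had 14266, 13156 and 10663 normalized counts in BODIPY-high libraries 1, 2 and 3, against 13146, 10519 and 11119 in BODIPY-low libraries 1, 2 and 3. BODIPY-high libraries 1 and 2 were the highest of the 6, with library 1 of the BODIPY-low gate close to library 2. In limma the change came to 0.13 on the log2 scale (SE 0.13, 95% interval -0.17 to 0.42, adjusted p = 0.846). Derl1 and Edem1 had log2 changes of -0.07 and -0.03.

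Equal-numbered libraries of the 2 gates often stood together in these genes. Libraries numbered 3 were lowest in both gates for 17 of the 44 (38.6%), against 18.4% of all genes tested, and highest in both for 11 (25.0%), against 21.1%. Those numbered 2 were lowest in both for 5 (11.4%), against 11.8%, and highest for 9 (20.5%), against 11.4%. For number 1, 6 were lowest in both (13.6%), against 18.3%, and 8 were highest (18.2%), against 16.4%. By role, library 3 was lowest for 5 of 7 signal peptidase and oligosaccharyltransferase genes, 4 of 5 ERAD genes and 3 of 6 chaperones and isomerases. The same held for 4 of 12 translocon genes and 1 of 2 KDEL receptors, but for 0 of 6 SRP genes and 0 of 6 stress genes. Library 3 was highest for 4 of 6 SRP genes (Srp14, Srp19, Srp68 and Srp72) and 3 of 12 translocon genes (Sec61b, Sec61g and Ssr4). It was also highest for 2 of 7 signal peptidase and oligosaccharyltransferase genes (Dad1 and Spcs1) and 2 of 6 stress genes (Ddit3 and Ern1). The distance of library 3 from libraries 1 and 2 correlated between gates at r = 0.598 across the 44 genes and 0.363 across all genes tested, which is a description, since genes of a library share its preparation and depth. The microglial marker sum was lowest in library 3 of both gates, and 9 of 12 of these markers were lowest there in both. Endothelial markers were also lowest there, with sums of 1479 in BODIPY-high and 1623 in BODIPY-low library 3 and 6 of 8 markers lowest in both. The sums for border-associated macrophages and for monocytes and neutrophils were highest there, the second at 177711 in BODIPY-high and 113741 in BODIPY-low library 3, with 11 of 12 and 7 of 11 markers highest in both. The part of these populations in the pattern of the ER genes was not tested. By equal numbers, the median difference of the 44 genes between gates was -0.01, -0.04 and -0.15 for numbers 1, 2 and 3.

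**Figure D5:**
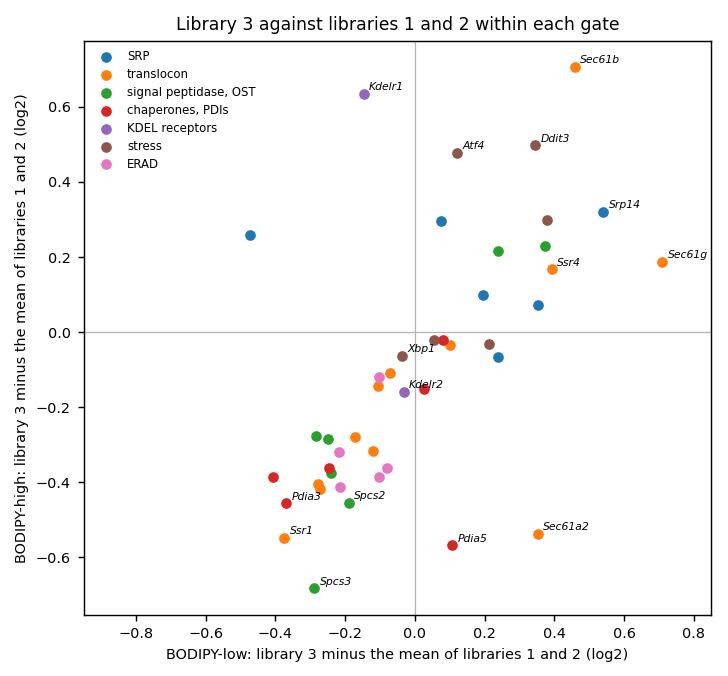
For each of the 44 tested ER genes, the log2(normalized count + 1) of library 3 minus the mean of libraries 1 and 2, in the BODIPY-high gate (vertical axis) and in the BODIPY-low gate (horizontal axis), coloured by role. Most genes lie at the lower left or upper right, where library 3 departs the same way in both gates (r = 0.598 across 44 genes).

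Related ER genes outside the 47 gave 0 calls in limma as well, against 2.03% of all genes tested called higher and 0.0235% called lower. Of 17 ATF6 and XBP1 target chaperones, 0 passed in either direction (limma), and the median change was -0.03. The gates did not overlap in 1 of the 17 with BODIPY-high lower and in 1 with BODIPY-high higher (5.88% each). All genes tested gave 5.95% lower and 10.4% higher. Hspa5 had 70322, 63055 and 58868 normalized counts in BODIPY-high libraries 1 to 3 and 61161, 61411 and 49121 in BODIPY-low libraries 1 to 3. A log2 change of 0.17 with an SE of 0.13 resulted (95% interval -0.12 to 0.45, adjusted p = 0.764 by limma). Hsp90b1 (Grp94), an ER chaperone, had a log2 change of 0.11 (adjusted p = 0.852 by limma). Dnajb9, a co-chaperone induced by Xbp1, had 1778, 1902 and 1986 normalized counts in BODIPY-high libraries 1, 2 and 3, against 2187, 2144 and 2474 in BODIPY-low libraries 1, 2 and 3, with no overlap. The log2 change was -0.26 (SE 0.11, 95% interval -0.50 to -0.02), with an adjusted p of 0.412 by limma. Manf, a secreted protein of the same response, had -0.24 (adjusted p = 0.571 by limma). Of 21 tested PERK and ATF4 target genes, 0 passed and the median was 0.05. The gates did not overlap in 2 of the 21 with BODIPY-high higher (9.52%) and in 0 with BODIPY-high lower. Ppp1r15a (GADD34), which reverses PERK signalling, had 2552, 2379 and 3354 normalized counts in BODIPY-high libraries 1 to 3 and 2018, 2374 and 2145 in BODIPY-low libraries 1 to 3. Every BODIPY-high library lay above every BODIPY-low library, by a small margin between the libraries numbered 2. Its log2 change was 0.33 with a 95% interval of 0.01 to 0.65 (SE 0.14, adjusted p = 0.470 by limma). Aldh18a1, of proline synthesis, had 0.24 (adjusted p = 0.592 by limma).

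Of 21 other ERAD genes, 0 passed (median -0.02). The gates did not overlap in 1 of the 21 with BODIPY-high lower and in 1 with BODIPY-high higher (4.76% each). Over all genes tested the shares were 5.95% lower and 10.4% higher. Vcp, the ATPase that pulls chains out of the membrane, had a log2 change of 0.19 and Vimp, which anchors it there, -0.26, with adjusted p by limma of 0.472 and 0.413. Of 14 other disulfide isomerases, 0 passed in limma and 1 was lower with the replicate block, against 0.462% of all genes lower with the block. That gene was Erp29, a chaperone-like relative of the isomerases, which had 6726, 7111 and 7401 normalized counts in BODIPY-high libraries 1, 2 and 3, against 8032, 8499 and 9575 in BODIPY-low libraries 1, 2 and 3. All BODIPY-high libraries lay below all BODIPY-low libraries. Its log2 change was -0.29, with an SE of 0.10 and a 95% interval of -0.51 to -0.08 (adjusted p = 0.265 by limma). Its adjusted p was 0.0461 with the block. P4hb, the founding isomerase, had a log2 change of 0.00 (adjusted p = 0.999 by limma), and Txndc16 had 0.24 (0.389). Of the 14 isomerases, 2 did not overlap with BODIPY-high lower (14.3%) and 1 with BODIPY-high higher (7.14%), against 5.95% and 10.4% of all genes.

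In the remaining lists 0 genes passed in limma or with the block. With the block, 4.37% of all genes were called higher and 0.462% lower. Among 12 SRP receptor, signal peptidase catalytic and tail-anchor insertion genes (median -0.03), the catalytic subunits Sec11a and Sec11c had log2 changes of -0.32 and -0.25. The gates did not overlap in 5 of the 12 with BODIPY-high lower (41.7%) and in 0 with BODIPY-high higher. All genes tested gave 5.95% lower and 10.4% higher. Among 13 other oligosaccharyltransferase and glycan trimming genes (median -0.01), the small subunits Krtcap2 and Ostc had -0.43 and -0.24. Among 10 genes of the ER membrane protein complex, an insertase (median -0.11), Emc7 and Emc10 had -0.23 and -0.19. Among 14 tested other stress sensors and membrane-bound factors (median -0.08), Creb3 and Traf2 had -0.15 and -0.17. The adjusted p by limma of these 8 genes ran from 0.284 to 0.713. With BODIPY-high lower, non-overlap was found in 1 of the 13, 1 of the 10 and 1 of the 14 genes of the later lists. With BODIPY-high higher, it was found in 0 of the 13, 0 of the 10 and 1 of the 14.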

How the data were processed

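RNA of sorted microglia was sequenced in 3 BODIPY-high and 3 BODIPY-low libraries. Per the labels' protocols, libraries were made from total RNA with the SmartSeq v4 and Nextera XT kits, which do not keep the strand. Per the series' design text, reads were checked with FastQC 0.11.4, aligned to mm10 with STAR 2.5.3a and counted per gene by STAR. Both mm9 and mm10 stand in the submitters' processing notes. Which annotation and strand column were used for counting is not given in the sources used here. As deposited, the signal values are gene counts scaled by the authors with 1 size factor for each library. Every deposited value was a whole multiple of the worth of 1 read, within 0.05 of a read (100% of values), and the size factors were 0.911 to 1.09. The recovered reads entered the count tests. A count of 0 allows up to 3 reads, and intervals cover counting and replicate spread of PCR-copied reads, not of molecules.

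The test was limma-trend (limma 3.58.1 under R 4.3.3) with the gate as its single term. It was two-sided and used log2(normalized count + 1), with Benjamini-Hochberg adjustment over 12767 genes. A fold change on this scale understates the change of genes with few reads. Genes were kept where 3 or more libraries reached 10 normalized counts. edgeR 4.0.16 and DESeq2 1.42.0 were run on recovered reads. The limma fit without the block and the edgeR fit were tried on simulated data, while DESeq2 and the replicate block were not. The other alternatives were pseudocounts of 0.5 and 5, no filter, a filter at 50, TMM scaling, a replicate block and leaving out libraries. Leaving out both libraries numbered 3 was added after the data had been seen.

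The titles number the libraries 1 to 3 in each gate. Deviations from the gate mean correlated at 0.354, 0.244 and 0.363 between equal numbers and at -0.255 to -0.095 between unequal ones, so equal numbers vary together. The test above keeps the gate as its single term, and the fit with the number as a block is given beside it where a call changes. The labels do not say what a number marks, so the p-values reflect only how far these samples differ, which may be technical.

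The members and all lists were chosen with earlier results of these data known. Values by library are given for members past the test, for Xbp1, Atf4, Atf6, Ddit3, Ern1 and Eif2ak3, and for the 3 members of smallest p in each role. Of each related list, called genes, the 2 of smallest p, Hspa5, Hsp90b1 and P4hb are named. Exon lengths and shared stretches came from GENCODE M21 and promoters from RefSeq (GRCm38.p6). All 47 members matched GENCODE.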

Additional observations from a re-analysis of the deposited data

How the results depend on the processing

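The count of members called higher was 0 in each setting run. The count called lower was 2 with the replicate block and 2 with DESeq2 (Kdelr2 and Tram2), and 0 in the others, each single library left out included. Over all genes, 259 were called higher by limma, against 131 with a filter at 50, 558 with the replicate block, 464 with DESeq2, 117 without both libraries numbered 3 and 15 to 271 with 1 library left out. The count called lower was 3, against 1 with a filter at 50, 59 with the block, 1 with edgeR, 32 with DESeq2, 0 without both libraries numbered 3 and 0 to 2 with 1 library left out. The cause was not tested. The median log2 change of the members was -0.117 to 0.0021 with 1 library left out, and the value above 0 came without BODIPY-high library 3. For the 23 members named with values by library, 341 of 345 values under the alternatives kept their side of the threshold, and 4 passed it (Kdelr2 and Tram2). A reversal was counted only where both changes reached their SE, and 0 were found. Members whose change was under its SE in the main fit could not count as reversed. Among these, Atf4, Atf6, Calr, Ern1 and Pdia4 changed sign in some fits with 1 library left out. Atf4 went from -0.14 to 0.11 without BODIPY-high library 2. Besides Kdelr2, Tram2 and Erp29, the block changed no call of the ER genes named. TMM scaling moved the median change of all genes by -0.012. With 3 libraries a gate, the intervals of 9 members reach past 1.5-fold, and Kdelr3, Pdia2 and Srp54b lay too low to test.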
